A study of Mus musculus with 18 samples.

Results

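The genes described are 9 genes of the transforming growth factor beta (TGF-beta) pathway, measured in mouse embryo fibroblasts that carried an extra chromosome and in fibroblasts with normal chromosomes. They were taken as a named list: the ligands Tgfb1, Tgfb2 and Tgfb3, the receptors Tgfbr1, Tgfbr2 and Tgfbr3, the latent binding proteins Ltbp1 and Ltbp2, and the feedback inhibitor Smad7. They are 9 of the 12394 genes that the arrays measured through a probe set listed with a single gene, and 15 probe sets read them. A gene was tested when its mean log2 value over all arrays was at least 4, which held for 7382 genes and for 8 of the 9 members. Tgfbr3 stayed below that level on every array.

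The series holds 18 arrays, 1 for each fibroblast line. Wt lines had a normal complement of chromosomes (9 arrays). The trisomic lines carried 3 copies of chromosome 13 (Ts13, 4 arrays), of chromosome 16 (Ts16, 3 arrays), of chromosome 1 (Ts1, 1 array) or of chromosome 19 (Ts19, 1 array). All lines, Wt included, were kept in culture for 2 passages, and 5 ug of total RNA went into each labelling. The labels give no strain, age or embryo of origin, so p-values measure only the spread between these cultures. Each title holds a first number that 1 or 2 control lines share with 1 or 2 trisomic lines; its meaning is not stated in the labels. Values are log2 expression values, so that a difference of 1 is a 2-fold difference.

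TGF-beta is secreted as a latent complex: the mature dimer stays bound to its own propeptide, and the propeptide is linked to a latent TGF-beta binding protein that anchors the complex in the extracellular matrix. Integrins, thrombospondin or proteases release the active ligand, which brings the type II receptor Tgfbr2 and the type I receptor Tgfbr1 together. The type I receptor then phosphorylates Smad2 and Smad3, which enter the nucleus with Smad4 and raise matrix genes, contractile genes and their own inhibitor Smad7. Fibroblasts both make and answer these ligands, and the pathway is best known in them for collagen deposition and for the turn to myofibroblasts.

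RNA quality differed between arrays. On Ts13 replicates 3 and 4 and on Ts16 replicate 1 Gapdh control probes at the 3' end exceeded those at the 5' end by 6.94, 5.57 and 6.55 on the log2 scale, against -0.20 to 1.41 on the other 15 arrays. These 3 are called 3'-biased below, and results are given with and without them. All 9 fibroblast markers were above the filter. Of the markers of other cells, 0 of 6 for endothelium, 0 of 3 erythroid, 1 of 6 for epithelium (Krt18), 1 of 4 for megakaryocytes (Gp1bb) and 4 of 17 for macrophages were above it. The summed macrophage signal was 10.85 on Ts13 replicate 4 and 10.15 on Wt replicate 8, and 7.00 to 7.79 on the other 16. Fewer cells of a type and less RNA per cell cannot be told apart in such bulk samples.

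Tgfb2 was higher in the trisomy 1 culture than on any other array, by 1.32 over the control mean. Ltbp1 was higher in each of the 4 trisomy 13 cultures than in the controls with the same first number, by 0.78 to 1.57. Smad7 was above all 9 controls in Ts1, in Ts19 and in the 2 trisomy 13 cultures without 3' bias. Tgfb1, Tgfb3 and Smad7 were lowest on the 3 biased arrays, in Ts13 and Ts16 alike, as were 11.5% of the genes tested. No member passed the test over all genes in any of the 5 comparisons made with limma.

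**Figure D1:**
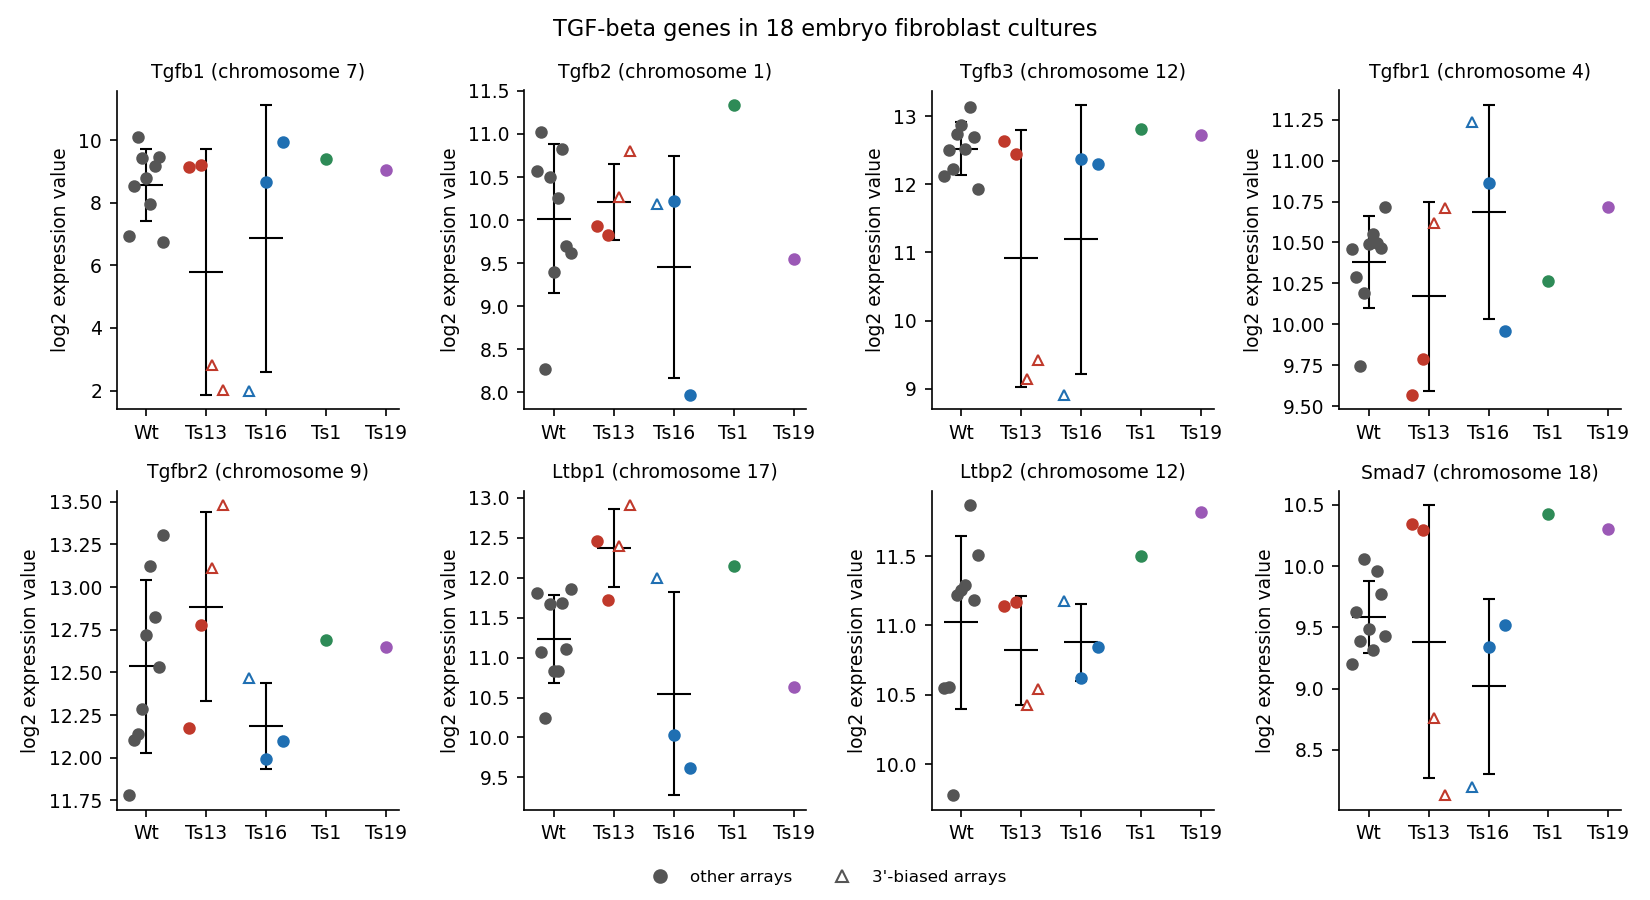
Log2 expression value (vertical axis) of the 8 tested members in the 5 groups (horizontal axis), at the probe set with the highest mean. Each point is 1 array, open triangles are the 3'-biased arrays, and black marks are the group mean with 1 SD where a group has more than 1 array. Tgfb1, Tgfb3 and Smad7 are lowest on the 3 biased arrays, Tgfb2 is highest in Ts1 at 11.34, and Ltbp1 is at 11.72 to 12.91 in Ts13.

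The 2 proximal promoters below are those of the member that differed most between Ts13 and Ts16 (Ltbp1) and of the member with the widest spread in controls (Tgfb1). They are RefSeq sequences of build GRCm38.p6, read on the gene's strand and ending at the outer start of the gene, and were taken from 6 members with an entry. Ltbp1 lies on chromosome 17 (chr17:75005480-75392512, plus strand) and the stretch printed is chr17:75005279-75005479. Tgfb1 lies on chromosome 7 (chr7:25687002-25705077, plus strand) and its stretch is chr7:25686752-25687001. Capitals mark a cAMP response element (TGACGTCA) in Ltbp1 and GC boxes (GGGCGG on either strand, which reads CCGCCC on the other) in Tgfb1.
Ltbp1: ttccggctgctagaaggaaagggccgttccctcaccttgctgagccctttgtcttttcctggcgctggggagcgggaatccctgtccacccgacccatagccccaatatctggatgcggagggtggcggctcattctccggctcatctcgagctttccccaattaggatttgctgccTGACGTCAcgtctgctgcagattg
Tgfb1: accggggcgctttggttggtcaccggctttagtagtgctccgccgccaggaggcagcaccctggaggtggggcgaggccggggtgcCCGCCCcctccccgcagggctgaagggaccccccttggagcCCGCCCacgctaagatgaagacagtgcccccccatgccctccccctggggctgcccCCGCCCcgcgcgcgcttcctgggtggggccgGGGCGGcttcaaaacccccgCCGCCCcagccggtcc
The 201 bases of Ltbp1 hold 1 TGACGTCA and have 58.7% G and C. Of 32851 mouse promoters, 1.546% hold TGACGTCA in the 250 bases before their start. In the first 201 of these, which leave out the bases closest to the start, 0.849% hold it. A second Ltbp1 entry, chr17:75178531-75178780, lies inside the gene and holds no TGACGTCA in its 250 bases. The 250 bases of Tgfb1 hold 5 GC boxes and have 75.2% G and C, where the median promoter had 52.4% and 32.7% of promoters held at least 1 GC box. TATAAA and CACGTG were also searched on both strands and are in neither stretch. These matches describe the letters only.

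Among the ligands, Tgfb1 encodes the most widely expressed isoform. In controls its log2 value ran from 6.76 (replicate 9) to 10.11 (replicate 3), with a median of 8.80. In Ts13 it was 9.13, 9.21, 2.80 and 2.00 in replicates 1 to 4. In Ts16 it was 1.99, 8.66 and 9.93, in Ts1 9.41 and in Ts19 9.05. The 3 values under 3 belonged to the 3'-biased arrays, and every other trisomic value lay inside the control range. In order, the group levels were 9.41 in Ts1, 9.05 in Ts19, 8.57 ± 1.16 in Wt (SD, n = 9), 6.86 ± 4.26 in Ts16 (n = 3) and 5.79 ± 3.92 in Ts13 (n = 4). Both single arrays lay inside the control range, and the ranges of Wt, Ts16 and Ts13 overlapped. The log2 difference from Wt was -2.78 ± 1.44 in Ts13 (SE, limma adjusted p = 0.27) and -1.71 ± 1.60 in Ts16 (limma adjusted p = 0.803). Without the biased arrays both turned positive, at 0.60 ± 0.73 and 0.72 ± 0.73 (limma adjusted p = 0.86 and 0.806).

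Tgfb3, the isoform known for its role in palate fusion, showed the same arrays at the bottom. Controls ran from 11.92 to 13.14 with a median of 12.52. Ts13 gave 12.64, 12.45, 9.14 and 9.43, and Ts16 gave 8.91, 12.37 and 12.29. Ts1 was at 12.81 and Ts19 at 12.72. Outside the 3 biased arrays every trisomic value fell inside the control range. The order of group levels was Ts1, Ts19, Wt (12.52 ± 0.38), Ts16 (11.19 ± 1.97) and Ts13 (10.91 ± 1.89). The single arrays of Ts1 and Ts19 lay inside the control range, and the other groups overlapped. Against Wt the difference was -1.61 ± 0.67 in Ts13 (SE, limma adjusted p = 0.179, unadjusted p = 0.0276) and -1.33 ± 0.74 in Ts16 (limma adjusted p = 0.758). On the arrays without 3' bias it was 0.02 ± 0.25 in Ts13 and -0.19 ± 0.25 in Ts16.

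Tgfb1, Tgfb3 and Smad7, 3 of the 8 tested members, were lower on all 3 biased arrays than on all 15 others, as were 11.5% of all genes tested. No member was above all 15 others on those arrays, against 7.59% of genes. The mean on the biased arrays minus the mean on the others was -6.57 for Tgfb1, -3.37 for Tgfb3 and -1.40 for Smad7. It was 1.25 for Ltbp1, 0.55 for Tgfbr1, 0.54 for Tgfbr2, 0.49 for Tgfb2 and -0.37 for Ltbp2. Within Ts16 the biased array was the highest for Ltbp2, at 11.17, while within Ts13 the biased arrays were the lowest. The part of RNA quality in these differences was not tested.

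**Figure D2:**
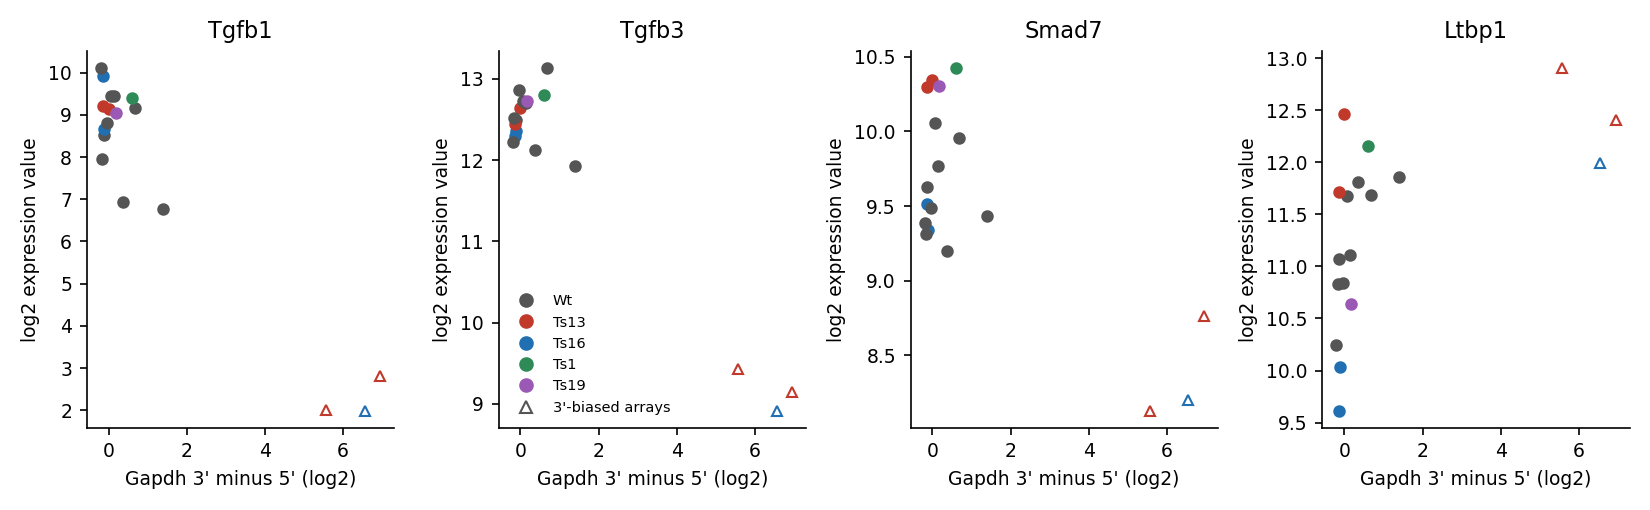
Log2 expression value (vertical axis) of Tgfb1, Tgfb3, Smad7 and Ltbp1 against the excess of 3' over 5' signal in the Gapdh controls (horizontal axis, log2) on 18 arrays coloured by group. The 3 biased arrays (open triangles) lie at 5.57 to 6.94; Tgfb1, Tgfb3 and Smad7 are low there and Ltbp1 is at 12.00 to 12.91.

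Tgfb2, the isoform needed in heart, skeletal and eye development, is the only member on a chromosome that was trisomic here. It lies on chromosome 1 (chr1:186622787-186709697), of which Ts1 carried 3 copies. At the probe set with the highest mean the Ts1 value was 11.34, and controls ran from 8.27 (replicate 3) to 11.02 (replicate 2) with a median of 10.25. Its other probe sets gave 10.96 in Ts1 against 8.71 to 10.70 in controls, and 11.70 against 7.51 to 10.04. At all 3 probe sets Ts1 was above each of the 17 other arrays. The control of the same first number, Wt replicate 9, was lower than Ts1 by similar amounts at all 3: the differences were 1.72, 1.58 and 1.66. Against the mean of the 9 controls they were 1.32 ± 0.85, 1.19 ± 0.64 and 2.36 ± 0.93 (SE; limma adjusted p = 0.99 for the gene, and 0.935 and 0.719 for the other probe sets). A single array stands behind each of these values, and its spread was taken from the groups with replicates.

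The Tgfb2 value in Ts1 can be set beside those of its chromosome. The 414 tested genes of chromosome 1 had a median difference of 0.70 between Ts1 and Wt, with quartiles of 0.33 and 1.10, and the 6968 genes elsewhere had a median of 0.03. At 1.32, Tgfb2 was above the upper quartile of its chromosome, and 64 of the 414 genes were higher. Together 3 of the 8 tested members (Tgfb2, Ltbp1 and Smad7) were above all 9 controls in Ts1, where 14.5% of the genes tested were.

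**Figure D3:**
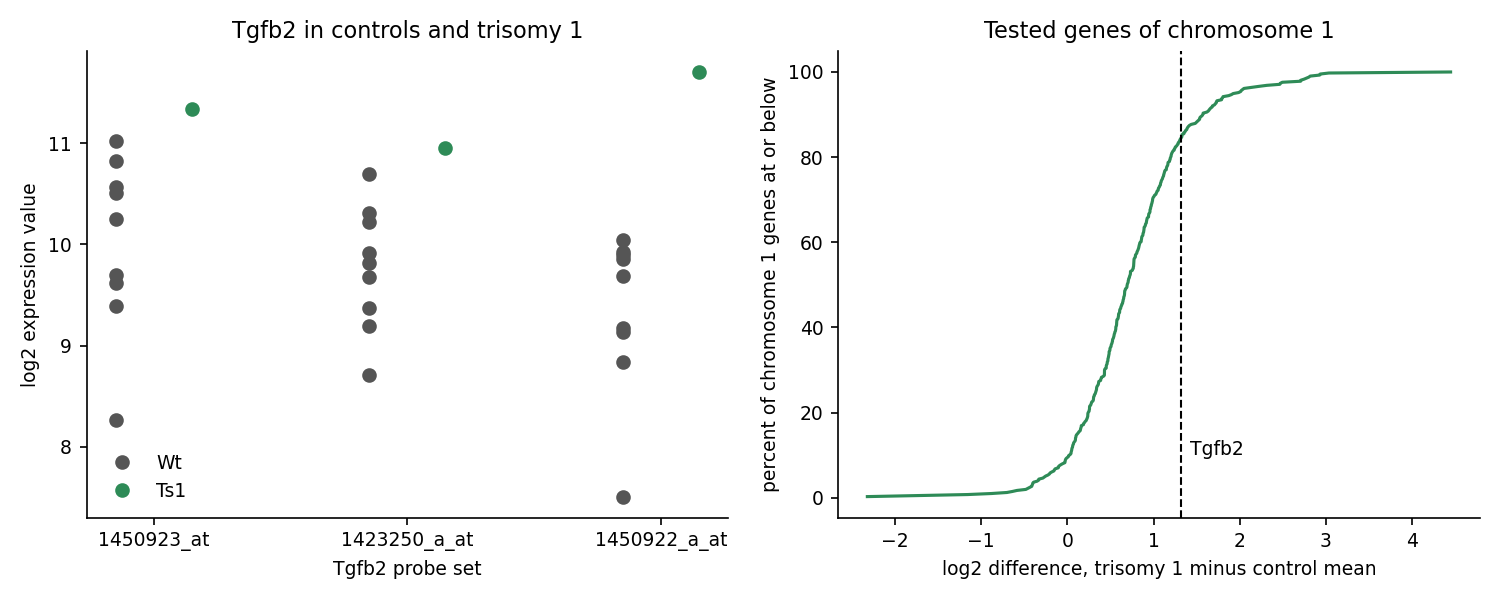
Left, log2 expression value (vertical axis) of the 3 Tgfb2 probe sets (horizontal axis) in 9 controls and in Ts1, which is highest at each. Right, cumulative percent (vertical axis) of the 414 tested genes of chromosome 1 by their log2 difference between Ts1 and the control mean (horizontal axis), with Tgfb2 at 1.32 as a dashed line.

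In the other trisomies Tgfb2 stayed close to controls at the probe set with the highest mean, with 1 exception. Ts13 gave 9.93, 9.82, 10.26 and 10.81, Ts19 gave 9.55, and Ts16 gave 10.19, 10.22 and 7.97. The lowest of these, Ts16 replicate 3, shares its first number and its replicate number with the lowest control, Wt replicate 3 at 8.27. In order the levels were 11.34 in Ts1, 10.21 ± 0.44 in Ts13, 10.02 ± 0.86 in Wt, 9.55 in Ts19 and 9.46 ± 1.29 in Ts16. Below Ts1, neighbours in this order overlapped. The difference from Wt was 0.19 ± 0.48 in Ts13 and -0.56 ± 0.53 in Ts16 (SE, limma adjusted p = 0.836 and 0.807). The probe sets did not give the same picture on the biased arrays, Ts13 replicates 3 and 4 and Ts16 replicate 1. At the probe set that gave 11.70 in Ts1 these arrays were at 10.51, 10.72 and 10.34, above all controls. At the probe set that gave 10.96 in Ts1 they were at 8.81, 9.46 and 9.01, inside the control range.

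Of the latent binding proteins, Ltbp1 tethers latent TGF-beta to fibronectin and fibrillin in the matrix. It gave the largest difference of any member between Ts13 and Ts16. Controls ran from 10.25 (replicate 3) to 11.86 (replicate 9) with a median of 11.11. Ts13 was at 12.46, 11.72, 12.40 and 12.91, and Ts16 at 12.00, 10.03 and 9.61. Ts1 was at 12.15 and Ts19 at 10.64. Of the 4 Ts13 cultures, 3 were above every control, and replicate 2 was below Wt replicates 1 and 9. The Ts16 cultures split: the 3'-biased replicate 1 was above every control, and the other two were below every control.

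Against controls of its own first number, Ltbp1 was higher in all 4 Ts13 cultures, by 0.78, 0.89, 1.57 and 1.22. It was the only member with 4 of 4 above, a pattern that 14.7% of the genes tested had. In Ts16 the corresponding values were 0.97, -1.04 and -1.41, and 0 of the 8 members were below in all 3 Ts16 cultures, against 10.9% of genes. Ts16 replicates 1 to 3 also pair with Wt replicates 1 to 3 by replicate number, and in these pairs the Ltbp1 differences were 0.19, -1.04 and -0.63. The order of group levels was 12.37 ± 0.49 in Ts13, 12.15 in Ts1, 11.24 ± 0.55 in Wt, 10.64 in Ts19 and 10.55 ± 1.27 in Ts16. Neighbours overlapped in it, apart from Ts1, which was above all 9 controls.

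The fit placed Ltbp1 near the threshold. Its difference between Ts13 and Wt was 1.14 ± 0.39 (SE, unadjusted p = 0.00975, limma adjusted p = 0.125), and between Ts16 and Wt -0.69 ± 0.43 (limma adjusted p = 0.764). The difference between Ts13 and Ts16 was 1.82 ± 0.49 (unadjusted p = 0.0019, limma adjusted p = 0.0616). Without the biased arrays these became 0.85 ± 0.37 (limma adjusted p = 0.473), -1.41 ± 0.37 (limma adjusted p = 0.204) and 2.26 ± 0.48 (limma adjusted p = 0.0607). The difference between Ts13 and Ts16 passed without Ts16 replicate 1 (limma adjusted p = 0.00794), without Ts13 replicate 2 (0.0448) and without Wt replicate 3 (0.0468). It also passed with arrays centred on their medians (limma adjusted p = 0.0413), with quantile normalization (0.0469) and with the 3' minus 5' difference as a covariate (0.022). With the first number as a replicate block it was 1.61 (limma adjusted p = 0.792), and with the replicate number 1.66 (0.146). Without Ts16 replicate 2 it was 1.57 (limma adjusted p = 0.249) and without Ts16 replicate 3 1.36 (0.187). Without Ts13 replicate 3 or 4 it was 1.81 and 1.65 (limma adjusted p = 0.129 and 0.145). The signal of Ltbp1 was higher by 1.25 on biased arrays, and 2 of the 4 Ts13 arrays are biased. With the covariate, the difference between Ts13 and Wt was 0.56 ± 0.34 (limma adjusted p = 0.499).

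In the Ts16 pairs by replicate number 3 members differed in 1 direction throughout. Tgfb2 was below its control in all 3, at -0.38, -0.81 and -0.30, a pattern that 17.9% of the genes tested had. Tgfbr1 was above in all 3 (0.77, 0.57 and 0.22), and so was Ltbp2 (0.62, 0.07 and 1.07), as were 17.7% of genes. The other 5 members, Ltbp1 among them, were mixed. None passed in the fit of these pairs, where Tgfbr1 was at 0.52 ± 0.18 (SE, limma adjusted p = 0.448).

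**Figure D4:**
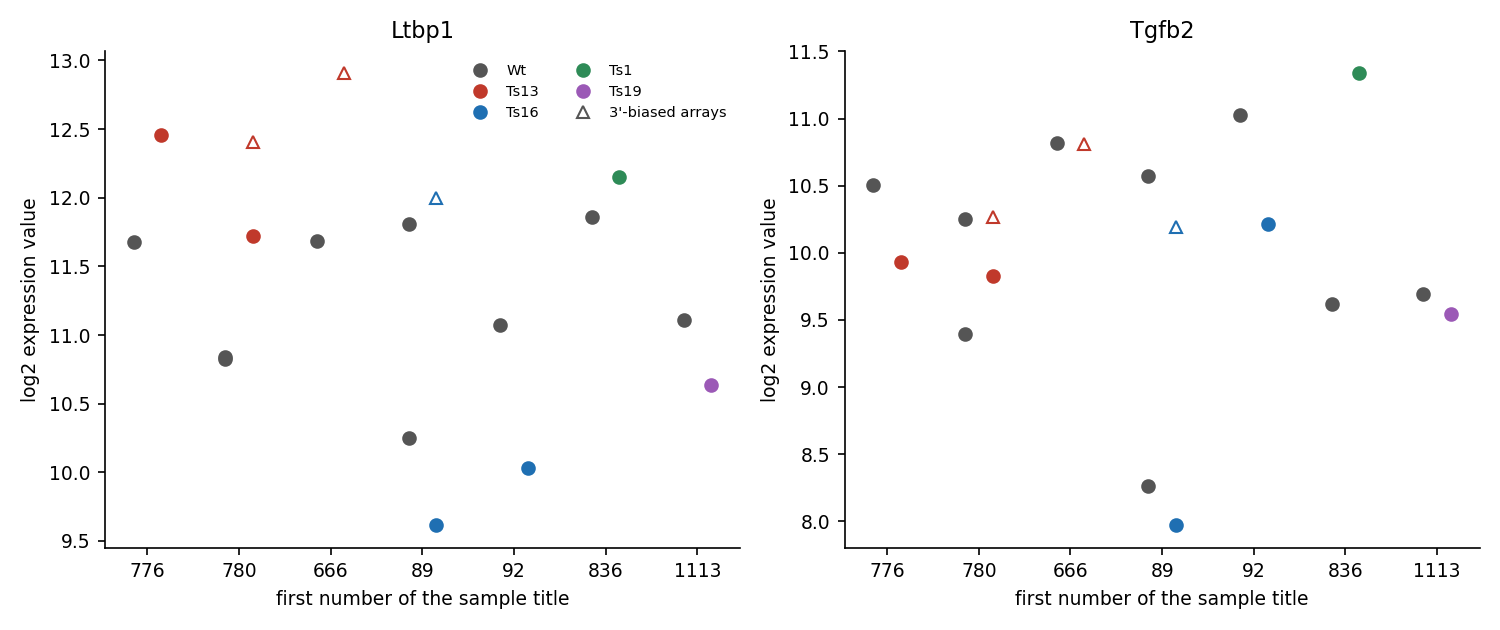
Log2 expression value (vertical axis) of Ltbp1 and Tgfb2 on arrays that share the first number of the title (horizontal axis), with controls to the left of trisomic cultures in each pair of columns and open triangles for 3'-biased arrays. For Ltbp1 all 4 Ts13 points lie above the controls of their number, and 2 of the 3 Ts16 points lie below theirs.

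Ltbp2, a relative of Ltbp1 that sits on elastic fibres and does not bind latent TGF-beta, did not follow it. Controls ran from 9.78 (replicate 3) to 11.86 (replicate 7) with a median of 11.22. Ts13 was at 11.14, 11.17, 10.42 and 10.54, Ts16 at 11.17, 10.62 and 10.84, Ts1 at 11.50 and Ts19 at 11.81. All 9 trisomic values lay inside the control range. The order was Ts19, Ts1, Wt (11.02 ± 0.625), Ts16 (10.88 ± 0.28) and Ts13 (10.82 ± 0.39), with every group inside the range of Wt. The difference from Wt was -0.20 ± 0.30 in Ts13 and -0.14 ± 0.34 in Ts16 (SE, limma adjusted p = 0.715 and 0.92).

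The receptors varied less. Tgfbr1, the signalling kinase of the receptor complex, ran from 9.75 (replicate 3) to 10.72 in controls, with a median of 10.47. In Ts13 it was 9.57, 9.79, 10.62 and 10.71, in Ts16 11.23, 10.86 and 9.96, and in Ts1 10.27. Of the Ts13 cultures without 3' bias, replicate 1 was below the lowest control and replicate 2 was just above it, inside the control range. The biased Ts13 cultures were among the high arrays. The Ts19 value was 0.34 above the control mean. The difference between Ts13 and Wt was -0.21 ± 0.26 (SE, limma adjusted p = 0.649), and -0.70 ± 0.26 without the biased arrays (unadjusted p = 0.0163, limma adjusted p = 0.378). In Ts16 it was 0.31 ± 0.29 (limma adjusted p = 0.803). The group means ran from 10.69 ± 0.65 in Ts16 and 10.38 ± 0.28 in Wt to 10.17 ± 0.58 in Ts13, and these ranges overlapped. The other 2 probe sets of Tgfbr1 were below the filter, and 1 of them reached 4.51 to 5.43 in Wt replicates 2 and 3 and Ts16 replicates 2 and 3, with 2.33 to 3.41 on the other arrays.

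Tgfbr2 binds the ligand first and is the type II kinase. Controls ran from 11.78 (replicate 1) to 13.31 (replicate 9) with a median of 12.53. Ts13 was at 12.17, 12.78, 13.11 and 13.48, Ts16 at 12.47, 11.99 and 12.10, Ts1 at 12.69 and Ts19 at 12.65. Only Ts13 replicate 4, a biased array, left the control range. The levels were ordered Ts13 (12.88 ± 0.55), Ts1, Ts19, Wt (12.54 ± 0.51) and Ts16 (12.19 ± 0.25). Ts1 and Ts19 lay inside the ranges of both Ts13 and Wt, and Ts16 inside that of Wt. Against Wt the difference was 0.35 ± 0.27 in Ts13 and -0.35 ± 0.30 in Ts16 (SE, limma adjusted p = 0.457 and 0.792), and without the biased arrays it was -0.06 ± 0.33 and -0.49 ± 0.33. A second probe set of the gene split the arrays otherwise: it was at 6.21 to 7.56 in Wt replicates 2, 3, 5 and 6, Ts13 replicate 2 and Ts16 replicates 2 and 3, and at 4.84 to 5.54 on the other 11.

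Tgfbr3, or betaglycan, presents Tgfb2 to the signalling receptors. Its probe set read 1.88 to 2.69 over all 18 arrays, a level at which signal and background are hard to separate. The 4 highest values were 2.69 in Wt replicate 3, 2.55 in Ts16 replicate 2, 2.50 in Ts19 and 2.39 in Ts16 replicate 3. It entered a test only where the filter was dropped, and was then at -0.09 ± 0.13 in Ts13, 0.26 ± 0.14 in Ts16 and 0.47 ± 0.23 in Ts19 against Wt (SE, limma adjusted p = 0.634, 0.978 and 0.93), and at -0.35 ± 0.16 in Ts13 minus Ts16 (limma adjusted p = 0.372).

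Smad7, which blocks the type I receptor and is itself raised by TGF-beta, lies on chromosome 18. Controls ran from 9.20 (replicate 1) to 10.06 (replicate 4) with a median of 9.49. Ts13 was at 10.34, 10.30, 8.76 and 8.13, Ts16 at 8.20, 9.34 and 9.52, Ts1 at 10.43 and Ts19 at 10.30. All 3 biased arrays were below every control, and both unbiased Ts13 cultures were above every control, as were Ts1 and Ts19. Against controls of the same first number the Ts13 cultures differed by 0.29, 0.90, -0.64 and -1.83, Ts16 by -1.09, -0.29 and 0.22, Ts1 by 0.99 and Ts19 by 0.53. Smad7 was the 1 member of 8 above all 9 controls in Ts19, where 6.16% of the genes tested were. In order the levels were Ts1, Ts19, Wt (9.58 ± 0.29), Ts13 (9.38 ± 1.11) and Ts16 (9.02 ± 0.71), and Wt, Ts13 and Ts16 overlapped.

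The fit gave Smad7 a difference from Wt of -0.20 ± 0.37 in Ts13 and -0.56 ± 0.41 in Ts16 (SE, limma adjusted p = 0.773 and 0.777). Without the biased arrays it was 0.74 ± 0.23 in Ts13 (unadjusted p = 0.00634, limma adjusted p = 0.292) and -0.15 ± 0.23 in Ts16 (limma adjusted p = 0.884). Ts1 was at 0.84 ± 0.31 in that fit (limma adjusted p = 0.402) and Ts19 at 0.72 ± 0.31 (unadjusted p = 0.0354, limma adjusted p = 1). The difference between Ts13 and Ts16 was then 0.89 ± 0.29 (limma adjusted p = 0.17), against 0.36 ± 0.47 with all arrays (limma adjusted p = 0.726).

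**Figure D5:**
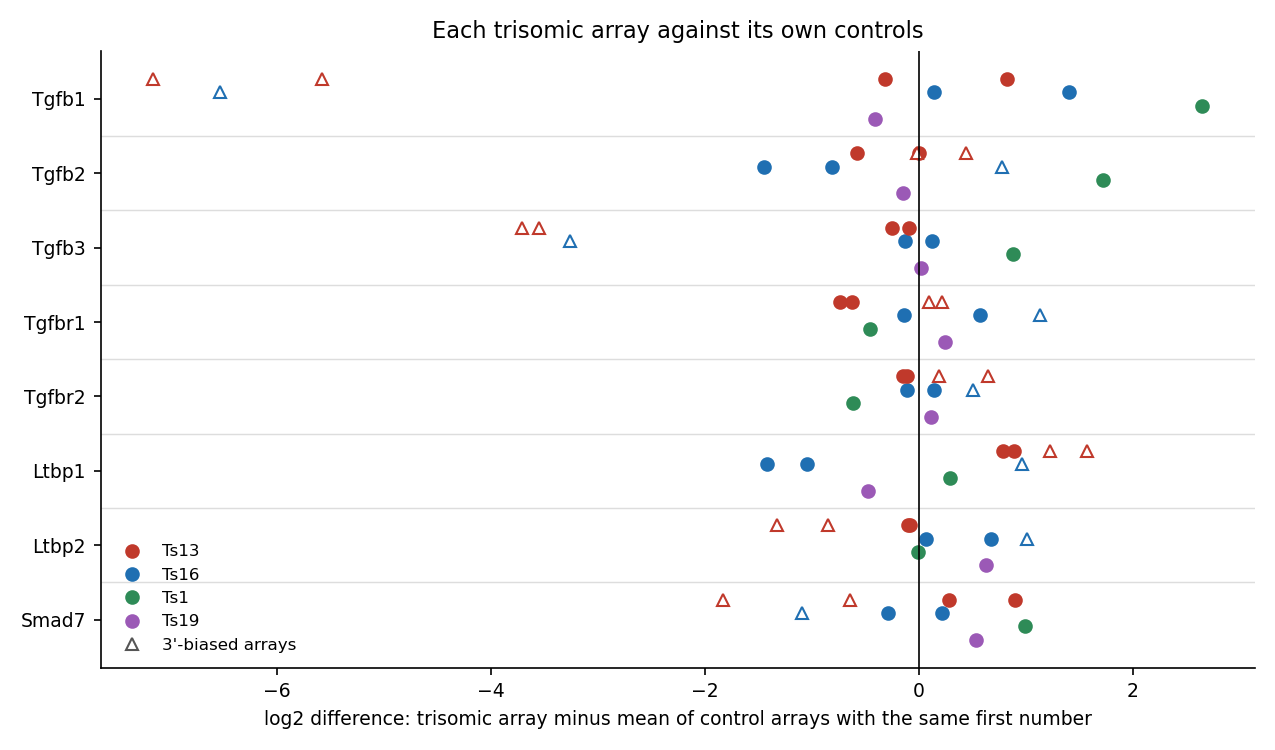
Log2 difference (horizontal axis) between each trisomic array and the mean of the control arrays with the same first number, for the 8 tested members (vertical axis). Colours are the groups, and open triangles are the 3'-biased arrays, at -5.58 to -7.15 for Tgfb1. Ltbp1 is the member with all 4 Ts13 points to the right of 0.

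Counted over the list, 0 of 8 members passed in Ts13 against Wt (1.76% of the 7382 genes did), with 2 at an unadjusted p under 0.05, Tgfb3 and Ltbp1, as were 21.9% of genes. In Ts16 against Wt 0 of 8 passed (0.0406% of genes, and 0 genes where Ts16 and Wt replicates 1 to 3 were paired by replicate number), in Ts1 0 of 8 (0.0406%) and in Ts19 0 of 8 (0%, with 145 genes at an unadjusted p under 0.05). In these 3 comparisons 0 members had an unadjusted p under 0.05, against 6.99%, 6.29% and 1.96% of genes. Between Ts13 and Ts16 0 of 8 passed (2.42%), with Ltbp1 at an unadjusted p under 0.05, as were 17.8% of genes. Without the biased arrays 0 of 8 passed in Ts13 against Wt (0.19% of genes) and 0 of 8 between Ts13 and Ts16 (0.366%). At these shares of all genes, a count of 0 among 8 says nothing particular about the members.

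The controls themselves differed in these genes. The SD over the 9 controls was 1.16 for Tgfb1 and 0.86 for Tgfb2, larger than in 96.0% and 91.3% of genes tested. It was 0.625 for Ltbp2, 0.55 for Ltbp1, 0.51 for Tgfbr2, 0.38 for Tgfb3, 0.29 for Smad7 and 0.28 for Tgfbr1, and the median gene had 0.38. Wt replicate 3 was the lowest control for Tgfb2, Tgfbr1, Ltbp1 and Ltbp2 and the highest for Tgfb1. Wt replicate 9 was the lowest for Tgfb1 and Tgfb3 and the highest for Tgfbr1, Tgfbr2 and Ltbp1.

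Over the 9 controls, 4 of which share a first number with another control, the closest pairs of members were Tgfbr1 with Ltbp2 (Pearson r = 0.79), Tgfbr2 with Ltbp2 (0.72) and Tgfb3 with Smad7 (0.70), and the most opposed was Tgfb1 with Tgfbr1 (-0.70). These are descriptions over 28 pairs. Of the 7381 other genes tested, those most like each member over the same 9 arrays were Septin9 (0.98) and Cdc37 (0.96) for Tgfb1, Cdipt (0.98) and Sgf29 (0.94) for Tgfb2, and Tef (0.97) and Midn (0.93) for Tgfb3. For the receptors they were Slc38a4 and Dock9 (0.96 each) for Tgfbr1 and Itm2a and Fam13c (0.97 each) for Tgfbr2. For Ltbp1 they were Mtor and Snx16 (0.98 each), for Ltbp2 Dvl1 and Rab8b (0.98 each), and for Smad7 2610507B11Rik (0.91) and Edc4 (0.88). They are given as a description, with no test.

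Other genes of the pathway were counted in 5 lists. Over all genes tested, the median difference between Ts13 and Wt was 0.013, and 0.004 without the biased arrays. The share of all genes above Wt was not counted, so the counts above Wt in the lists are descriptions only. Of 18 tested genes of latency and activation, 0 passed in Ts13 against Wt, with a median difference of -0.06 against 0.01 over all genes. The highest in controls were Bgn, a proteoglycan that binds TGF-beta, Thbs1, an activator, and Itgb1, an integrin chain, and their Ts13 differences were -0.72, 0.12 and -0.10, or 0.09, 0.29 and 0.39 without the biased arrays. The list's median was then 0.17, with 14 of 18 above Wt in place of 8. Fmod, a small proteoglycan of collagen fibrils on chromosome 1, was lower in Ts13 than in Ts16, at -2.62 ± 0.67 (SE, limma adjusted p = 0.0488), and at -2.87 without the biased arrays (limma adjusted p = 0.13). Its values were 9.34, 10.62, 11.53 and 9.59 in Ts13 and 12.95, 12.67 and 13.04 in Ts16, with controls from 9.90 to 12.97. The 2 trisomies did not overlap, a pattern that was not counted over all genes tested. The call was lost on leaving out any of 11 arrays, namely Wt replicate 1, 2, 3, 5 or 8, Ts16 replicate 1, 2 or 3, or Ts13 replicate 1, 2 or 4 (limma adjusted p = 0.0531 to 0.141). It was also lost with the first-number or the replicate-number block (0.224 and 0.104), without a filter (0.0814), with the mean of all probe sets (0.0684), with quantile normalization (0.0515) and without the trend (0.0565). The replicate-number block sets each Ts13 culture beside a Wt culture of another first number. Ltbp3, a latent binding protein on chromosome 19, was at 1.10 in Ts19, and Itgb5, an integrin chain on chromosome 16, at 0.13 in Ts16. For Ltbp3 the value was 12.71 in Ts19 and 12.01 in its same-number control, Wt replicate 8. In pairs by replicate number Itgb5 was higher in Ts16 throughout, a pattern of 17.7% of genes tested. It was at 12.95, 12.76 and 13.13 there and at 12.41, 12.42 and 12.65 in Wt replicates 1 to 3.

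Of the other receptors of the family 6 were tested and 0 passed in any comparison. In Ts13 1 of the 6 was above Wt, with a median of -0.33. Acvr1 and Bmpr1a, type I receptors for bone morphogenetic proteins, and Acvr2a, a type II activin receptor, had the highest control levels and were at -0.84, 0.22 and -0.36 in Ts13, or -0.03, -0.06 and -0.98 without the biased arrays. Bmpr2, a type II receptor on chromosome 1, was at 0.73 in Ts1. Of 18 Smads and regulators 0 passed in any comparison, and in Ts13 12 of 18 were above Wt, with a median of 0.14 (9 of 18 and -0.01 without the biased arrays). Smad4, the common partner, was at 0.03 in Ts13 and 0.05 in Ts16, or -0.37 and -0.10 without them. Smad5, which carries signals of bone morphogenetic proteins and lies on chromosome 13, was at 0.48 ± 0.22 in Ts13 (SE, limma adjusted p = 0.21), at 0.25 without the biased arrays, at 0.24 with the covariate, and at -0.46 as the mean of its probe sets (limma adjusted p = 0.54).

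Of 32 tested target genes, 1 rose and 1 fell in Ts13 against Wt, with 18 of 32 above Wt and a median of 0.08 (19 and 0.17 without the biased arrays, with 0 calls). Timp3, an inhibitor of matrix proteases, fell by 1.38 ± 0.31 in Ts13 (SE, limma adjusted p = 0.0344). Its values were 11.20, 11.93, 10.59 and 10.56 in Ts13 and 11.79 to 13.15 in controls, with the 2 biased arrays lowest and replicate 2 inside the control range. Without the biased arrays it was at -0.88 (limma adjusted p = 0.332), and the call was also lost without Ts13 replicate 3 or 4 and without Wt replicate 2, 5, 6, 7 or 8 (0.0536 to 0.179). It was lost as well with the first-number or the replicate-number block (limma adjusted p = 0.173 and 0.102), with only the controls of the same first number (0.139), with the mean of all probe sets (0.134) and with the covariate, where the difference was -0.86 (0.119). Here too the replicate-number block does not join Ts13 cultures to controls of their first number. Timp3 was also lower in Ts13 than in Ts16, at -2.04 ± 0.39 (limma adjusted p = 0.0145), and at -2.02 without the biased arrays (limma adjusted p = 0.0407). That call was lost without Ts16 replicate 2 (limma adjusted p = 0.0884), with either block (0.333 and 0.085) and with the mean of all probe sets (0.0671). Lox, which cross-links collagen, rose by 0.34 ± 0.08 in Ts13 (limma adjusted p = 0.0449). It was at 14.93, 15.11, 14.97 and 15.19, all above the highest control at 14.90, a pattern that was not counted over all genes. Ts1 at 14.93, Ts19 at 14.96 and Ts16 replicate 2 at 14.97 were also above that control. The Ts13 difference of Lox was 0.30 without the biased arrays (limma adjusted p = 0.356). That call was lost on leaving out any of 11 arrays, namely Wt replicate 1 to 6, 8 or 9, Ts16 replicate 2, or Ts13 replicate 3 or 4 (limma adjusted p = 0.0538 to 0.217). As the mean of all probe sets Lox was at 0.12 (limma adjusted p = 0.485), and its call was also lost with either block (0.194 and 0.102), controls of the same first number (0.202), no filter (0.0771), quantile normalization (0.0504), the covariate (0.136) and no trend (0.138).

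Classical targets that mark the contractile and matrix programme did not pass in Ts13: Acta2, smooth muscle actin, was at 0.02, Col1a2, a collagen chain, at -0.08, and Sparc, a matrix glycoprotein, at -0.63. Without the biased arrays they were at 0.10, 0.07 and -0.14. The 32 tested targets gave 0 calls in Ts16, Ts1 and Ts19, with medians of 0.02, 0.30 and 0.18 against -0.05, 0.05 and -0.08 over all genes. Targets on an extra chromosome were Tgfbi at 0.51 and Vcan at 0.10 in Ts13 (0.15 and -0.29 without the biased arrays), Snai2 at 0.41 in Ts16 (0.23 without them), Fn1 at 0.28 and Col3a1 at 0.06 in Ts1, and Acta2 at 0.20 in Ts19. Wt replicates 4 to 7, which share first numbers with Ts13, were at 10.01 to 12.00 for Tgfbi and 10.83 to 11.28 for Vcan. Wt replicates 1 to 3 were at 8.39 to 9.41 and 11.71 to 12.52. Against controls of its first number Tgfbi was lower in Ts13 replicates 2 and 3 and higher in replicates 1 and 4. Vcan was higher in every Ts13 replicate, a pattern that 14.7% of the genes tested had. It was at 10.98 against 10.86 in replicate 1, and at 12.22 against 10.83 in the 3'-biased replicate 4.

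Among 9 tested related ligands and antagonists 0 passed, and 7 of 9 were above Wt in Ts13 (6 of 9 without the biased arrays). The list's median was 0.14, and 0.18 without the biased arrays, against 0.013 and 0.004 over all genes. Inhba and Fst in this list lie on chromosome 13. Inhba, the activin A subunit on chromosome 13, was at 12.16, 12.24, 12.24 and 11.99 in the 4 Ts13 cultures and at 9.24 to 11.93 in controls. These ranges did not overlap, but the share of all genes tested with that separation was not counted. The difference was 1.34 ± 0.39 (SE, limma adjusted p = 0.0859), 1.38 without the biased arrays (limma adjusted p = 0.422) and 0.69 in the fit blocked by replicate number (limma adjusted p = 0.185). That block joins Ts13 cultures to Wt cultures of other first numbers. With the first-number block the Inhba difference was 1.61 (limma adjusted p = 0.0648). Fst, the antagonist of activin on the same chromosome, was at 0.27, or 0.18 without the biased arrays. Fstl1, a secreted glycoprotein on chromosome 16, was at 0.23 in Ts16. In Ts1 Inhbb, the activin B subunit, was at 1.62 and Lefty1, an inhibitor of nodal signalling, at 0.15, both on chromosome 1. Grem1, an antagonist of bone morphogenetic proteins, was at 0.73 in Ts13 and -0.79 in Ts16, or 1.63 and -0.71 without the biased arrays.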

How the data were processed

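Gene expression of 18 fibroblast cultures was measured with 1 short-oligonucleotide array each. The deposited values are log2 expression values, made by the authors with affy and GCRMA per the submitters' processing notes; their versions and options, and whether the arrays were summarised jointly, were not given in the sources used here. GCRMA estimates background from probe sequence and puts low genes on a floor, so that differences of dim genes are uncertain. Arrays give no counting depth, and their number limits the precision.

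Of 22690 probe sets (64 of them controls), 20393 were listed with 1 gene, 691 with several and 1606 with none. A gene was read by its probe set with the highest mean, and 7382 genes with a mean of at least 4 entered limma (version 3.58.1, under R 4.3.3; lmFit, eBayes with a trend, all 5 groups in 1 fit, 13 residual degrees of freedom). P-values are two-sided and adjusted by Benjamini-Hochberg over the genes tested, with a threshold of 0.05. The procedure was tested on simulated data. Arrays whose Gapdh controls differed by more than 3 between the 3' and the 5' end are called 3'-biased. The members, the gene lists and that limit were chosen with earlier results of these data known.

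Named were all 9 members with every probe set. From each list, at most 6 genes past the threshold in a comparison of Ts13 or Ts16, genes on an extra chromosome and the 3 highest in controls were added, and for each member the 2 genes most like it in controls. By replicate number, Ts16 and Wt replicates 1 to 3 deviated together, with correlations of 0.52, 0.41 and 0.58 across genes, so they were also fitted as pairs. For Ts13 they ran from -0.26 to -0.03, and no pairing was used. With controls of the same first number the Ts13 correlations ran from -0.10 to 0.36. Each Ts13 culture shares its replicate number with a Wt culture of another first number. The replicate-number block therefore joins cultures that did not deviate together in Ts13, and it cannot decide whether a Ts13 result holds. As alternatives, the filter, the summary of probe sets, the scaling, the block, the controls used, a covariate for 3' bias and the trend were varied, and each array was left out in turn.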

Additional observations from a re-analysis of the deposited data

Results flagged for a closer look

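In the controls, the Tgfb2 probe set that gave 11.70 in Ts1 was far lower on Wt replicate 3 than on any other array of the group, at 7.51 against 8.83 for the next. The gap was 0.523 of the group's range, above the limit of 0.493 for 9 arrays. Of 22 groups of values examined this was the only such array, and chance gives about 1 in 20. At the other Tgfb2 probe sets the same array was also the lowest control, at 8.27 and 8.71, and Ts16 replicate 3, which shares its first number and replicate number, was at 7.40, 7.97 and 8.48.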

How the results depend on the processing

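The 40 member results (8 members in 5 comparisons) were refitted 1144 times under the alternatives. In 1085 of the refits the direction and the side of the threshold were kept, and 59 changed either. Only Ltbp1 crossed the threshold, in 7 refits. Its difference between Ts13 and Ts16 passed with median centring (1.82), with quantile normalization (1.78), with the 3' minus 5' covariate (1.62), and without Ts16 replicate 1, Ts13 replicate 2 or Wt replicate 3, and its difference between Ts13 and Wt passed without Ts16 replicate 1.

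Without the 3'-biased arrays the difference between Ts13 and Wt turned for several members, to 0.60 for Tgfb1, -0.14 for Tgfb2, 0.02 for Tgfb3, -0.061 for Tgfbr2, 0.13 for Ltbp2 and 0.74 for Smad7. That between Ts16 and Wt was 0.72 for Tgfb1, and that between Ts13 and Ts16 was 0.21 for Tgfb3 and 0.42 for Ltbp2. With the 3' minus 5' covariate Ts13 against Wt gave 0.25 for Tgfb1, -0.17 for Tgfb2 and 0.46 for Smad7, Ts16 against Wt gave 0.27 for Tgfb1, and Ts13 against Ts16 gave 0.22 for Tgfb3.

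With the first number as a replicate block, and equally with only the controls of the same first number, the difference from Wt turned for Tgfb2 in Ts13 (-0.035), for Tgfbr2 and Ltbp2 in Ts16 (0.18 and 0.58), for Tgfbr2 and Ltbp2 in Ts1 (-0.62 and -0.0076) and for Tgfb1 in Ts19 (-0.40). The block also turned Tgfbr2 between Ts13 and Ts16 (-0.035). With the replicate number as a replicate block it turned for Ltbp2 in Ts13 (0.29), Tgfbr2 and Ltbp2 in Ts16 (0.24 and 0.42) and Tgfbr1 in Ts1 (0.046). In Ts16 and Wt replicates 1 to 3 alone, paired by replicate number in a fit chosen after seeing the data, Tgfbr2 was at 0.18 and Ltbp2 at 0.58. With the mean of all probe sets Tgfbr2 turned in Ts1 (-0.24) and Ts19 (-0.20), Tgfbr1 in Ts19 (-0.15) and Smad5 in Ts13 (-0.46). Neither other scaling turned a member.

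Counts of genes past the threshold moved more. In Ts13 against Wt, 130 became 205 with median centring, 6 with the first-number block, 9 with the replicate-number block, 14 without the biased arrays, 46 with the covariate and 31 with matched controls. In Ts16, 3 became 8 without a filter, 11 with median centring, 9 with quantile normalization and 14 with the covariate, and 0 with either block, with the pairs alone, with matched controls and without the biased arrays. In Ts1, 3 became 45 without a filter, 1 with a mean of at least 6, 1 with the mean of all probe sets, 5 without the biased arrays, 12 with the covariate, 6 without the trend, and 0 with either block or matched controls. In Ts19, 0 became 40 without a filter. Between Ts13 and Ts16, 179 became 1 with the first-number block, 0 with the replicate-number block, 27 without the biased arrays and 425 with the covariate.

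On leaving out 1 array at a time, some member differences from Wt changed sign: that of Tgfb2 ran from -0.028 to 0.32 in Ts13 and from -0.93 to 0.19 in Ts16, that of Smad7 from -0.52 to 0.22 in Ts13, and that of Tgfb1 from -3.24 to 0.72 in Ts16. Between Ts13 and Ts16 the ranges were -3.51 to 0.46 for Tgfb1, -1.41 to 0.31 for Tgfb3, -0.19 to 0.088 for Ltbp2 and -0.046 to 0.78 for Smad7. Counts of genes were 26 to 734 genes in Ts13 against Wt, 0 to 8 in Ts16, 3 to 14 in Ts1, 0 to 0 in Ts19 and 26 to 352 between Ts13 and Ts16. The extremes came without Ts13 replicates 4 and 2, and, in the last comparison, without Ts16 replicates 2 and 1; in Ts16 they came without Ts16 replicate 1 and Wt replicate 9, and in Ts1 the 14 came without Wt replicate 9. In Ts13 against Wt the count was also 41 without Ts13 replicate 3, 310 without Ts13 replicate 1, 209 without Ts16 replicate 1, and 63 to 80 without Wt replicate 3, 5, 6, 7 or 8. Between Ts13 and Ts16 it was 66 without Ts13 replicate 4 and 116 without Ts13 replicate 3. The causes were not tested. Leaving out the only array of Ts1 or Ts19 gives no value, and matched controls were not run between Ts13 and Ts16. Ts1 and Ts19 rest on 1 array each, and Ts13 and Ts16 on 2 unbiased arrays each, which limits the precision of every value above.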
